A study of Homo sapiens with 6 samples.

Results

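The subunits of the oxidative phosphorylation system were read in BCPAP cells, an established line from a papillary thyroid carcinoma, after a short hairpin RNA against CSF2 or a non-targeting hairpin. Members were the genes whose probe sets carried a single annotation symbol beginning with the letters of a subunit family: NDUF followed by A, B, C, S or V and a number, SDHA to SDHD, UQCR, CYC1, COX4 to COX8, and the F1, M and P groups of ATP5. This gave 82 of 18132 genes measured: 35 of complex I, 3 of complex II, 9 of complex III, 17 of complex IV and 18 of complex V. Each gene was represented by its probe set of highest mean over the 6 arrays.

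Lentivirus delivered the hairpins. Puromycin was added at 48 h and kept for 7 days, and 200 ng of total RNA was labelled for Affymetrix PrimeView arrays, which read transcripts near the 3' end. The groups were shCSF2 (3 arrays, CSF2 hairpin) and shCtrl (3 arrays, non-targeting hairpin), both virus-treated and selected, and the labels call the samples of each group biological replicates. Neither the hairpin sequences nor the number of hairpins is given in the sources used here. CSF2 encodes the cytokine GM-CSF. No probe set was paired with CSF2 (0 found), so the level of the targeted gene was not analysed here, and each group is called by its label.

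Oxidative phosphorylation takes place in the inner mitochondrial membrane. Complex I takes electrons from NADH and complex II takes them from succinate, both passing them to coenzyme Q. Complex III hands them on to cytochrome c and complex IV to oxygen. Complexes I, III and IV pump protons, and complex V, the ATP synthase, uses the return of those protons to make ATP. Most subunits are encoded in the nucleus and a few in mitochondrial DNA. The promoters of nuclear subunit genes are known for sites of NRF1, of ETS family factors such as GABP, and of YY1.

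The first result was a small, broad difference: 50 of the 82 subunits were lower in shCSF2 and 3 were higher, at an adjusted p under 0.05 (limma with Benjamini-Hochberg adjustment over all genes). Over all genes the same threshold called 16.0% lower and 16.7% higher (32.7% in either direction), so the lower calls were 61% of the subunits against 16.0% and the higher calls 3.66% against 16.7%. The differences of the 50 lower subunits ran from -0.36 to -0.11 on the log2 scale, which is 1.08 to 1.29-fold, and the median over all 82 was -0.15, or 90.4% of the control level, beside -0.03 over all genes. All differences below are log2 values of shCSF2 minus shCtrl with the standard error (SE) of the fit, from 3 arrays a group.

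Upstream sequences of 5 subunit genes are shown first, as examples with and without a motif of NRF1, the ETS family or YY1. ATP5ME, NDUFB4 and COX6B1 were taken, after their values were seen, from the lower members of large change that hold such a motif, and NDUFV3 and NDUFV2 are members that were higher. No other gene of the RefSeq table lies in these 5 windows. Each line gives the 250 bases before the gene's RefSeq start (GRCh38.p14), 5' to 3' on the gene's strand, with motif matches in capitals. ATP5ME lies on the minus strand at chr4:674277-674526, NDUFB4 on the plus strand at chr3:120596086-120596335 and COX6B1 on the plus strand at chr19:35648073-35648322. NDUFV3 lies on the plus strand at chr21:42893059-42893308 and NDUFV2 on the plus strand at chr18:9102449-9102698.
ATP5ME: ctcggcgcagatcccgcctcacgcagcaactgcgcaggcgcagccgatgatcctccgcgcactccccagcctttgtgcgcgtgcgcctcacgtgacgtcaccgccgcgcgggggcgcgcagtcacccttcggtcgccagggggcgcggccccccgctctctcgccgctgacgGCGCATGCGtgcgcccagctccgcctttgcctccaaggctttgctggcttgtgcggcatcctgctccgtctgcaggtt
NDUFB4: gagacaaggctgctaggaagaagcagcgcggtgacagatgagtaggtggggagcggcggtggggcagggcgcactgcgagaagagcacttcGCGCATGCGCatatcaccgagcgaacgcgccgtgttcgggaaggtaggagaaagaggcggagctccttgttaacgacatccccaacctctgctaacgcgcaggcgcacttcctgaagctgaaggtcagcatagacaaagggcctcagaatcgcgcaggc
COX6B1: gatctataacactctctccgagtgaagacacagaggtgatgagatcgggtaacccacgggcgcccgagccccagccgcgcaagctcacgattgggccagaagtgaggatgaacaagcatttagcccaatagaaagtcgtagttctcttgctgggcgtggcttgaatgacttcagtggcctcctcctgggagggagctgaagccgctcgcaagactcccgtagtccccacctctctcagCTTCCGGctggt
NDUFV3: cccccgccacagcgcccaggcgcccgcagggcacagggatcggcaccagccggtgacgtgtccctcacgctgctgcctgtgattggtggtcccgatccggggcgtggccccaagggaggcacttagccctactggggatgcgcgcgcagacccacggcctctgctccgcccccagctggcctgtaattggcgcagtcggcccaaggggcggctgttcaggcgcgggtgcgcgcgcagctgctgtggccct
NDUFV2: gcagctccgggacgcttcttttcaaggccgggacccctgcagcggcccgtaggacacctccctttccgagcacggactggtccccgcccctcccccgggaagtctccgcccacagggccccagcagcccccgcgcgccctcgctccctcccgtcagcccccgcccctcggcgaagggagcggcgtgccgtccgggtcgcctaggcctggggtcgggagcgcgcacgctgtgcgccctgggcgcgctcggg
The capitals mark the NRF1 letters in ATP5ME, beginning at position -78 from the start, and in NDUFB4, where the matches on both strands overlap. In COX6B1 they mark the ETS letters, beginning at position -12. NDUFV3 and NDUFV2 held no match. Because the lower genes were picked for a match, this display does not compare lower with higher members. Other lower members of similar change, among them NDUFA2, NDUFA3, SDHA, COX7B and ATP5MJ, held no match either.

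Exact matches were sought on both strands for CGCATGCGC (NRF1), CCGGAAG (ETS) and AANATGGCG (YY1); none of these motifs contains another. Of the 82 members, 66 had a promoter in the RefSeq table, as had 14425 of all measured genes, and the first listed promoter was used for each. NRF1 letters stood in 9 of the 66 (13.6%, against 2.47% of all measured genes), ETS letters in 16 (24.2% against 12.1%) and YY1 letters in 2 (3.03% against 1.73%). At least 1 of the 3 motifs was found in 19 of 42 lower subunits (45.2%), in 4 of 21 that did not pass (19.0%) and in 0 of 3 higher ones, beside 15.3% of all measured genes. By complex, the count with a match was 9 of 31 for complex I, 1 of 2 for II, 3 of 6 for III, 4 of 14 for IV and 6 of 13 for V. The groups set side by side here were not matched for level, and the shares of all measured genes include dim genes. COX6B2 and COX8C, with means under 5, are among the subunits that did not pass and held no match. These matches are a description, not shown to be bound sites, and no test was made of them. The median GC content of the windows was 60.8% in the lower subunits, 57.6% in those that did not pass and 72.8% in the higher ones, against 62.8% for all measured genes. By its selected probe set, at a mean of 5.73, the NRF1 mRNA was higher at 0.16 ± 0.03. YY1 was higher at 0.19 ± 0.04 by its selected probe set, but of its 7 probe sets 1 was higher and 3 were lower. GABPA, the DNA-binding part of GABP, gave -0.08 ± 0.06 and did not pass. Any part of these factors in the subunit values was not tested.

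**Figure D1:**
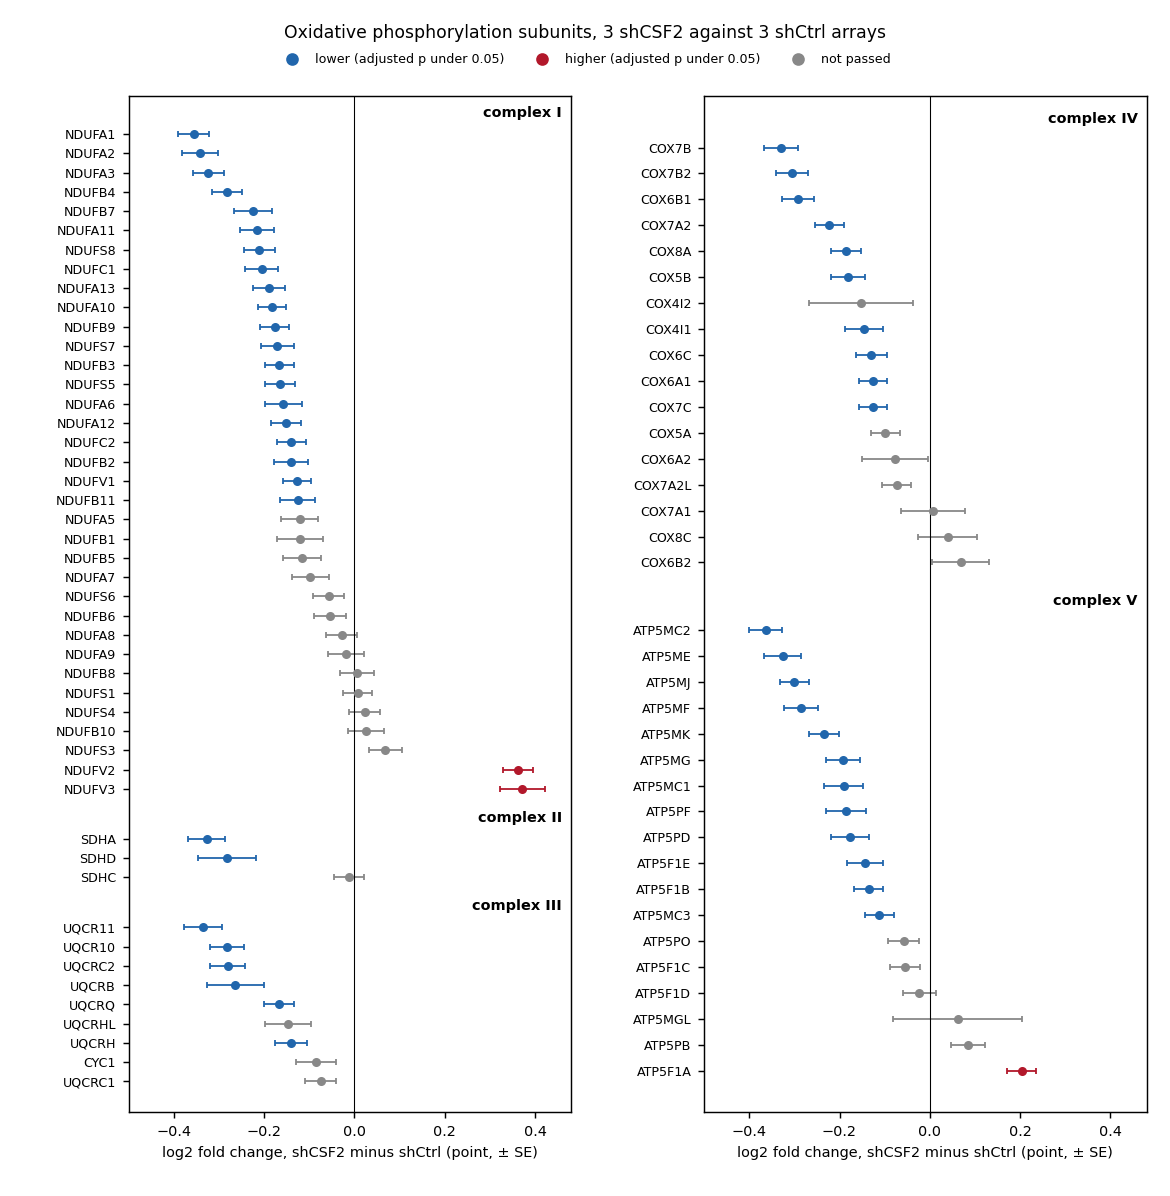
Log2 fold change (x axis, shCSF2 minus shCtrl, point ± SE, 3 arrays a group) of each of the 82 subunits, by complex. Most points lie left of 0; the 3 red points right of it are NDUFV2, NDUFV3 and ATP5F1A.

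Complex I is built of core subunits, some of which carry the flavin and the iron-sulfur clusters, and many accessory subunits around them. Of its 35 measured members 20 were lower, 2 were higher and 13 did not pass, with a median of -0.14. Array by array, the median of the 35 relative to the shCtrl mean was -0.16, -0.13 and -0.15 in shCSF2 replicates 1, 2 and 3 and -0.02, 0.00 and 0.01 in shCtrl. All 3 shCSF2 arrays lay under all 3 shCtrl arrays for 26 of the 35 members and over them for 3; over all genes these shares were 24.6% and 22.1%.

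The largest falls were in accessory subunits. NDUFA1, a small membrane-arm subunit, read 11.15, 11.15 and 11.09 in shCSF2 and 11.50, 11.49 and 11.47 in shCtrl (log2 values, here and below in the order of replicates 1, 2 and 3). The arrays did not overlap, the difference was -0.36 ± 0.03 (limma adjusted p = 0.000383), and all 3 of its probe sets were lower. NDUFA2, an accessory subunit near the NADH end, read 9.78, 9.86 and 9.88 against 10.17, 10.17 and 10.20, a difference of -0.34 ± 0.04 (limma adjusted p = 0.000813). NDUFA3 differed by -0.32 ± 0.03 and NDUFB4 by -0.28 ± 0.03; both belong to the membrane arm, and neither overlapped between groups. In all, 17 of 29 accessory subunits were lower and 1 was higher.

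The 6 core subunits measured were divided. NDUFS8 (-0.21 ± 0.03), NDUFS7 (-0.17 ± 0.04) and NDUFV1 (-0.13 ± 0.03) were lower. The first 2 carry clusters near the coenzyme Q site and NDUFV1 binds NADH. NDUFV2, which carries a cluster beside NDUFV1, was higher: it read 9.44, 9.47 and 9.44 in shCSF2 and 9.05, 9.10 and 9.09 in shCtrl. Every shCSF2 array was above every shCtrl array, with a difference of 0.36 ± 0.03 (limma adjusted p = 0.000332) from its only probe set, one of the _s_ type, which can match several transcripts. NDUFS1 (0.01 ± 0.03) and NDUFS3 (0.07 ± 0.04) did not pass.

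NDUFV3, an accessory subunit at the NADH-binding end, was the other that rose. It read 7.95, 7.96 and 7.95 in shCSF2 and 7.51, 7.55 and 7.68 in shCtrl, a difference of 0.37 ± 0.05 (limma adjusted p = 0.00154), and all 3 of its probe sets were higher. The NDUFV1 call, the lower one of the 3 NDUFV genes, was lost in 5 of 6 fits that each left out 1 array.

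In 2 complex I members the probe sets disagreed. The brightest probe set of NDUFB9 gave -0.18 ± 0.03 and a second was lower, while 1 at a mean of 3.34 gave 0.31 ± 0.09 and passed as higher. NDUFC2 was -0.14 ± 0.03 by its brightest probe set and 0.27 ± 0.05, also passing, by one at a mean of 5.44. The calls of both genes thus depended on the choice of probe set. The remaining lower members of complex I, 11 accessory subunits not yet named, lay between -0.23 (NDUFB7) and -0.13 (NDUFB11). Over the 6 fits that each left out 1 array, NDUFA6 lost its call in 5, NDUFB2 in 4 and NDUFB11 in 6. The 11 accessory subunits that did not pass lay between -0.12 (NDUFA5) and 0.02 (NDUFB10).

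**Figure D2:**
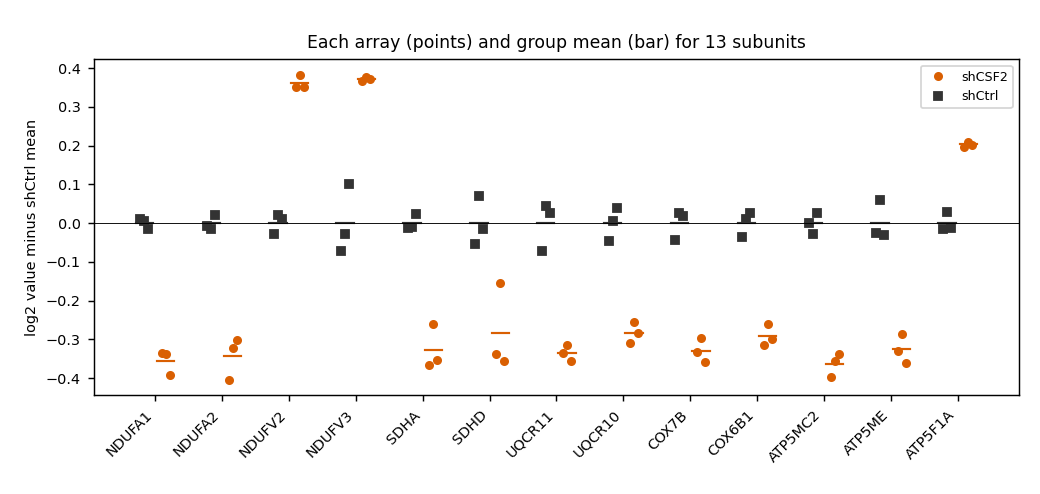
Value of each array (y axis, log2 minus the shCtrl mean; circles shCSF2, squares shCtrl, bars group means) for 13 subunits. The 3 arrays of a group lie close together, and no shCSF2 array reaches the shCtrl range in any of these subunits; SDHD has the widest spread in shCSF2.

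Complex II, succinate dehydrogenase, was measured through 3 of its 4 genes, since SDHB was not analysed here; its median was -0.28. SDHA, the flavoprotein that oxidises succinate, read 9.59, 9.70 and 9.60 in shCSF2 and 9.94, 9.95 and 9.98 in shCtrl. The groups did not overlap, and the difference was -0.33 ± 0.04 (limma adjusted p = 0.00112). That value came from a probe set of the _x_ type, whose probes can match other transcripts. A second of that type gave -0.34 ± 0.06, and the third probe set, dim at a mean of 3.95, gave -0.06 ± 0.06 and did not pass. SDHA has close pseudogene copies in the genome, so its reading is uncertain.

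SDHD, a membrane anchor, read 10.45, 10.64 and 10.43 against 10.74, 10.86 and 10.77. Replicate 2 of shCSF2 was nearest the controls but still below all of them, and the difference was -0.28 ± 0.06 (limma adjusted p = 0.0141). Of its 5 probe sets 4 were lower, of which 2 gave identical values (-0.27 ± 0.04). All 5 were of the _s_ or _x_ type, whose probes can match other transcripts, so the SDHD reading is uncertain too. SDHC, the other anchor, overlapped between groups at -0.01 ± 0.03, although 2 of its 5 probe sets were lower, at -0.27 ± 0.05 and -0.21 ± 0.06. The selected SDHC probe set was not the only bright one, so this gene's call depended on the probe set taken.

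Complex III had 6 of 9 members lower and 0 higher, with a median of -0.17. All 9 had every shCSF2 array under every shCtrl array, against 24.6% of all genes. At an unadjusted p under 0.05, limma called 7 lower and 0 higher. The share of all genes at that unadjusted threshold is not given, here or for the unadjusted counts below. Those counts thus have no background to be read against. UQCR11, a small subunit, read 10.01, 10.03 and 9.99 in shCSF2 and 10.27, 10.39 and 10.37 in shCtrl, a difference of -0.34 ± 0.04 (limma adjusted p = 0.00115). Its second probe set, at a mean of 6.65, rose by 0.18 ± 0.04, so its probe sets also passed in opposite directions. UQCR10, another small subunit, read 10.40, 10.46 and 10.43 against 10.67, 10.72 and 10.75, with no overlap and a difference of -0.28 ± 0.04 (limma adjusted p = 0.00149).

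UQCRC2, a core protein on the matrix side, differed by -0.28 ± 0.04 with both probe sets lower. UQCRB, which contacts the coenzyme Q pocket, differed by -0.26 ± 0.06, a call that was lost without shCSF2 replicate 1 (limma adjusted p = 0.0561) or replicate 3 (0.0575); over the 6 fits that each left out 1 array this p ranged from 0.0198 to 0.0575. UQCRQ differed by -0.17 ± 0.03. UQCRH, the hinge protein, was lower at -0.14 ± 0.04, and UQCRHL, its near-identical copy, gave -0.15 ± 0.05 without passing (limma adjusted p = 0.067); the signals of this pair cannot be separated with certainty. The UQCRH call was lost in 4 of 6 fits that each left out 1 array, and its second probe set gave 0.07 ± 0.04 without passing. UQCRC1, the other core protein (-0.07 ± 0.03), and CYC1, the haem-bearing cytochrome c1 (-0.08 ± 0.04), did not pass. The Rieske protein UQCRFS1 was not analysed here.

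Complex IV, cytochrome c oxidase, was represented by its nuclear subunits, with 10 of 17 lower, 0 higher (limma called 11 and 0 at an unadjusted p under 0.05) and a median of -0.13. COX7B, a small subunit needed for assembly, read 11.12, 11.16 and 11.10 in shCSF2 and 11.41, 11.48 and 11.47 in shCtrl. The groups were apart by -0.33 ± 0.04 (limma adjusted p = 0.000763), and both probe sets were lower. COX6B1, which faces cytochrome c, read 11.23, 11.28 and 11.24 against 11.51, 11.56 and 11.57, a difference of -0.29 ± 0.04 (limma adjusted p = 0.00103). COX7A2, the widely expressed form of its subunit, differed by -0.22 ± 0.03 with 4 of 5 probe sets lower.

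Several subunits of this complex exist as paired forms, a general one and one known from particular tissues. Of the 11 general members 9 were lower; of the 6 tissue forms 1 was. COX4I1 was lower at -0.15 ± 0.04, and its lung form COX4I2 gave -0.15 ± 0.11 with overlapping arrays. COX6A1 was lower at -0.13 ± 0.03 by its bright probe set, while a dim one, at a mean of 4.56, gave 0.13 ± 0.05 without passing. The heart and muscle form COX6A2 gave -0.08 ± 0.07. COX8A was lower at -0.19 ± 0.03, and the testis form COX8C gave 0.04 ± 0.07. For the testis form COX6B2 the value was 0.07 ± 0.06, and for the muscle form COX7A1 it was 0.01 ± 0.07. Of these tissue forms COX4I2, COX6B2, COX7A1 and COX8C had means under 5, where the arrays carry little signal.

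COX7B2, a form known from testis, was the only lower one among the 6. It read 7.30, 7.37 and 7.35 in shCSF2 and 7.62, 7.65 and 7.66 in shCtrl, and the difference of -0.31 ± 0.04 (limma adjusted p = 0.000857) came from a single probe set. Of the other general members, COX5B (-0.18 ± 0.04), COX6C (-0.13 ± 0.03) and COX7C (-0.12 ± 0.03) were lower; COX5A (-0.10 ± 0.03) and the supercomplex factor COX7A2L (-0.07 ± 0.03) did not pass. The count for complex IV fell to 6 of 17 without shCSF2 replicate 1, without shCtrl replicate 2 or without shCtrl replicate 3. In those fits 12.8%, 13.4% and 12.5% of all genes were lower. Over the 6 fits that each left out 1 array, COX6A1 and COX6C lost their calls in 5, COX4I1 in 4 and COX7C in all 6.

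Complex V had 12 of 18 members lower, 1 higher and a median of -0.16. The c subunits, which form the rotating ring in the membrane, are encoded by 3 genes, and all 3 were lower. ATP5MC2 read 10.13, 10.17 and 10.19 in shCSF2 and 10.53, 10.50 and 10.55 in shCtrl. This was the largest fall among all subunits, -0.36 ± 0.04 (limma adjusted p = 0.000403), with no overlap and a single probe set. ATP5MC1 differed by -0.19 ± 0.04 and ATP5MC3 by -0.11 ± 0.03. The ATP5MC3 call was lost in 6 of 6 fits that each left out 1 array, and 1 of its 4 probe sets was lower in the fit of all probe sets.

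Among the small membrane subunits, which hold the synthase in its dimers and shape the cristae, 5 of 6 were lower. ATP5ME read 10.64, 10.68 and 10.61 against 10.94, 11.03 and 10.94, a difference of -0.33 ± 0.04 (limma adjusted p = 0.00117). ATP5MJ differed by -0.30 ± 0.03 and ATP5MF by -0.28 ± 0.04, each with 4 probe sets lower, of 7 and of 5; those of ATP5MF were all of the _x_ type. ATP5MK (-0.24 ± 0.03) and ATP5MG (-0.19 ± 0.04) were lower too, and ATP5MGL, at a mean under 5, gave 0.06 ± 0.14.

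In the catalytic F1 head 2 of 5 members were lower and 1 was higher; whether this differs from the membrane subunits was not tested. ATP5F1A, the alpha subunit, rose: it read 11.69, 11.70 and 11.69 in shCSF2 and 11.48, 11.52 and 11.48 in shCtrl. Its difference of 0.20 ± 0.03 (limma adjusted p = 0.00329) was shared by 4 of 4 probe sets. ATP5F1B, the catalytic beta subunit, was lower at -0.14 ± 0.03, as was the epsilon subunit ATP5F1E at -0.14 ± 0.04. Of the 6 fits that each left out 1 array, 3 lost the ATP5F1B call and 5 the ATP5F1E call. ATP5F1C (-0.05 ± 0.03) and ATP5F1D (-0.02 ± 0.04), parts of the central stalk, did not pass. In the peripheral stalk ATP5PF (-0.19 ± 0.04) and ATP5PD (-0.18 ± 0.04) were lower, each call being lost in 3 of those 6 fits. ATP5PO (-0.06 ± 0.03) and ATP5PB (0.08 ± 0.04) did not pass. The count of lower members in complex V was 7 without shCtrl replicate 3, beside 12.5% of all genes. It was 4 of the 13 members left when probe sets of the _s_ and _x_ types were set aside, beside 14.6% of all genes. That alternative was chosen after seeing the data, and the median of those 13 was -0.0541.

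**Figure D3:**
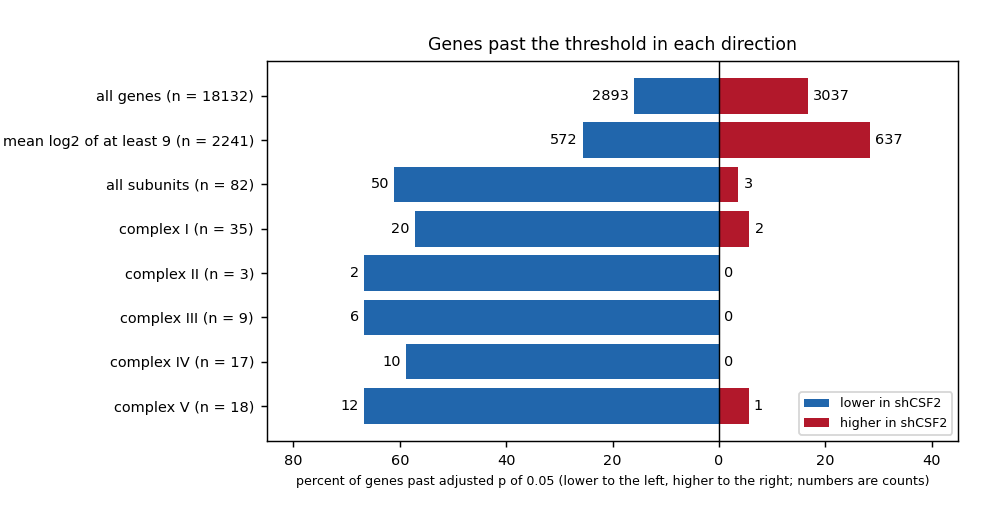
Percent of genes past an adjusted p of 0.05 (x axis; lower in shCSF2 to the left, higher to the right; numbers at the bars are counts) for all genes, genes whose mean was 9 or more on the log2 scale, all subunits and each complex. Lower calls reach 57.1% to 66.7% of each complex, against 16.0% of all genes.

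Most subunits were bright on these arrays, and bright genes passed the threshold more often. Of the 82, 67 had a mean of 9 or more on the log2 scale, and 46 of these were lower and 2 higher. Of the 2241 genes that bright, 25.5% were lower and 28.4% were higher. Among genes at 11 or more, 18 of 22 subunits were lower, against 21.3% of the 347 other genes; between 9 and 11 the counts were 28 of 45 subunits and 24.7% of 1827 other genes. The 5 subunits with a mean under 5, ATP5MGL and the 4 dim tissue forms, included 0 calls by limma, also 0 at an unadjusted p under 0.05.

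**Figure D4:**
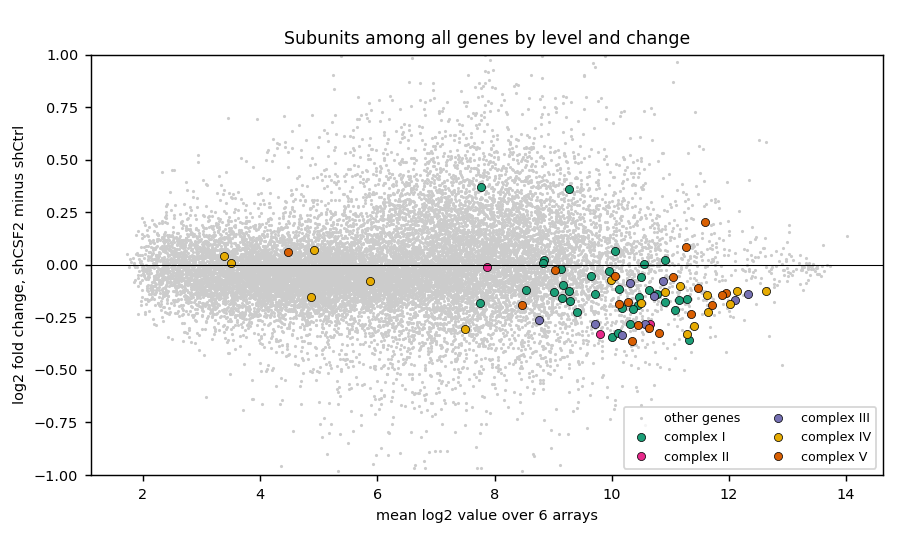
Log2 fold change (y axis) against the mean log2 value over 6 arrays (x axis) for the 82 subunits, coloured by complex, and all other genes in grey; 57 genes lie beyond the plotted range of 1 in either direction. The subunits cluster at high levels and slightly below 0.

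The difference was seen in each array. The median of the 82 subunits relative to the shCtrl mean was -0.16, -0.13 and -0.16 in the shCSF2 arrays and -0.02, 0.00 and 0.02 in the shCtrl arrays, while the median over all genes was between -0.03 and 0.01 in all 6. In 63 of the 82 subunits all shCSF2 arrays were below all shCtrl arrays and in 5 they were above. Over all genes these shares were 24.6% and 22.1%. Of the 187 probe sets of these genes, 46.5% were lower and 5.88% higher, against 14.2% and 15.6% of all 44988 probe sets with 1 symbol. Of the 32 lower subunits with more than 1 probe set, 22 had more than 1 lower in the fit of all probe sets. For ATP5MC3 and NDUFB11 the only lower probe set in that fit was not the selected one. For NDUFB4 the further lower probe set gave values identical to the selected one, so it adds no separate reading.

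Array medians ranged from 5.77 to 5.79, the lowest correlation within a group was 0.998 and the highest between groups 0.994, and no arrays were identical. For RNA quality, the 3' minus 5' signal of the control gene ACTB was 0.61 ± 0.05 (SD, n = 3) in shCSF2 and 0.59 ± 0.05 in shCtrl (exact two-sided permutation p = 0.6). For GAPDH it was -0.01 ± 0.01 (SD, n = 3) and -0.03 ± 0.01 (exact two-sided permutation p = 0.1, the smallest that 3 against 3 allows); its part in the subunit values was not tested. Thyroid markers were in part present: PAX8 read 8.07 and 8.11 and NKX2-1 9.36 and 9.78 (group means, shCSF2 and shCtrl), while TG, TSHR and SLC5A5 were under 5 in both. Of the 7 measured thyroid markers 1, NKX2-1, was lower, as was 1 of 5 epithelial markers (KRT8); 0 of 4 leukocyte, 0 of 3 endothelial and 0 of 4 striated muscle markers passed (by limma's unadjusted p under 0.05, 0, 0 and 2). In bulk RNA, fewer cells of a kind and less RNA per cell cannot be told apart.

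Other genes build and supply the chain, and the counts of their lists are to be read against the 16.0% of all genes called lower and the 16.7% called higher. Assembly factors, which insert cofactors and join subunits, were split, with 18 higher and 15 lower of 51 measured and a median of 0.03. The largest changes were in NUBPL, which delivers iron-sulfur clusters to complex I (-0.64 ± 0.07, 4 of 4 probe sets lower), and SDHAF4, which helps mature SDHA (-0.62 ± 0.04).

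Genes that maintain and transcribe mitochondrial DNA had 8 of 17 higher and 0 lower, with a median of 0.11 (by limma's unadjusted p under 0.05, 9 and 2). TFAM, which packages mitochondrial DNA and starts its transcription, read 8.47, 8.53 and 8.49 in shCSF2 and 7.70, 7.72 and 7.79 in shCtrl. It rose by 0.76 ± 0.04 (limma adjusted p = 4.67e-05) in all 3 probe sets, and TFB2M, its partner in initiation, rose by 0.52 ± 0.05. The 13 subunits encoded in mitochondrial DNA were not analysed here, so no value of theirs stands beside these.

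Of 11 regulators of mitochondrial biogenesis 3 were higher and 1 lower. ESRRG, an orphan nuclear receptor, fell by 1.07 on the log2 scale (SE 0.04, limma adjusted p = 1.79e-05) in 7 of 7 probe sets, and the coactivator PPRC1 rose by 0.38 ± 0.04. In the tricarboxylic acid cycle, which feeds NADH and succinate to the chain, 3 of 11 rose and 1 fell; SUCLA2 (0.52 ± 0.05) and DLD (0.35 ± 0.04) changed most. Coenzyme Q and cytochrome c genes gave 1 higher (PDSS1, 0.38 ± 0.04) and 2 lower of 14, of which COQ4 changed most (-0.30 ± 0.04); neither share exceeded that of all genes. Organisers of the cristae gave 4 lower of 11, led by APOOL (-0.40 ± 0.05) and CHCHD6 (-0.21 ± 0.05), and 1 higher. A list of 4 subunit or inhibitor genes outside the naming rule gave 1 lower and 0 higher. COXFA4, a complex IV subunit once named NDUFA4, was the lower one, by all 3 probe sets, at -0.22 ± 0.03. NDUFAB1 (-0.03 ± 0.03), ATP5IF1 (-0.06 ± 0.03) and DMAC2L (-0.08 ± 0.04) did not pass.

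**Figure D5:**
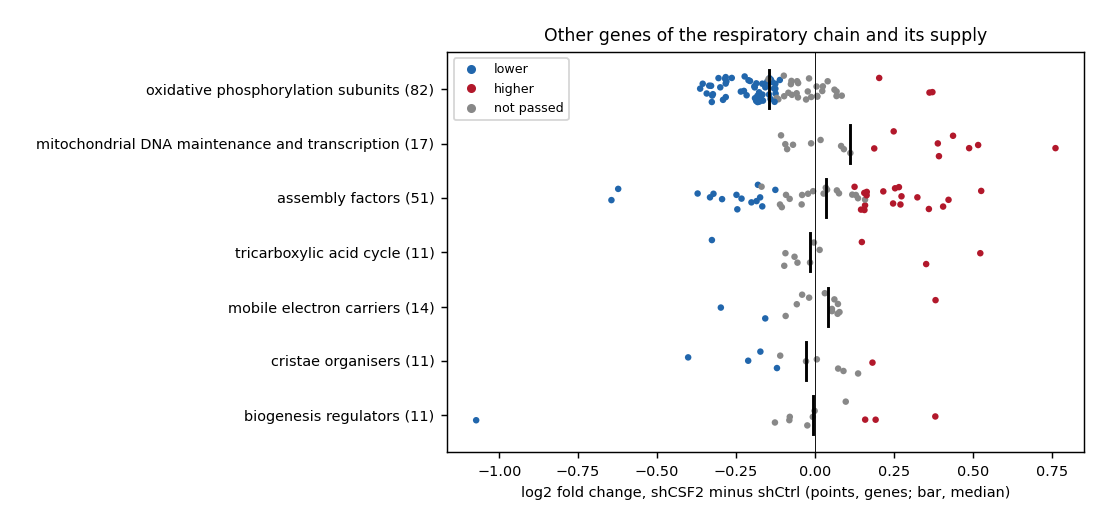
Log2 fold change (x axis, shCSF2 minus shCtrl) of each gene (points, coloured by call) in the subunit set and 6 other lists, with the number of genes measured in brackets and the median as a bar. Subunits lie mostly below 0, the mitochondrial DNA list mostly above, and the other lists on both sides.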

How the data were processed

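Total RNA of 6 BCPAP samples was measured on 3' arrays, 3 a group by title. The authors deposited log2 values, 1 per probe set; RMA, oligo and limma are listed in the submitters' processing notes with neither versions nor roles. Of 49395 probe sets, 44988 carried 1 gene symbol in the platform annotation; 8 others that paired a member with further genes were not used. The brightest probe set per gene gave 18132 genes, which entered limma 3.58.1's lmFit and eBayes (R 4.3.3) with no block or filter. P-values were adjusted by Benjamini-Hochberg over all genes, threshold 0.05. The number of arrays limits the precision. On simulated data with 50 changed genes a size among 18132, the fit recovered 66% at -0.3 and 2% at -0.15, with 7 false calls of 117. The real fit called 5930 genes, so its adjusted threshold was less strict than in the simulation. The simulated shares therefore do not give the power of the real fit. Small differences can still be missed. Named genes were up to 4 per complex and direction by size, the SDH genes, tissue isoforms, members with conflicting probe sets, and the 2 most changed per pathway list; the other members were added so that each is accounted for. Members and lists were chosen with earlier results of these data known. Promoters came from RefSeq (GRCh38.p14). Alternatives varied the filter, scaling, variance model, probe set, block and arrays. Figures used matplotlib 3.10.9.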

Additional observations from a re-analysis of the deposited data

How the results depend on the processing

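The subunits kept their balance of many lower and few higher calls under the alternatives run. Lower calls ranged from 34 with the most variable probe set to 60 with a variance trend and robust estimation, beside 2 to 4 higher. They were 37 to 46 when each array was left out in turn (3 higher each time). Of all genes, 15.2% were lower and 16.9% higher with the most variable probe set. The variance trend gave 18.5% and 19.3%, and the fits without an array 12.5% to 13.9% and 14.1% to 15.1%. With the replicate block 43 were lower and 3 higher, beside 14.7% and 15.4% of all genes, and 5469 genes of all passed. Same-numbered samples correlated at only 0.03 to 0.05 in their deviations and 2 of the 3 numbers matched themselves best. The numbers were therefore not taken to pair the samples. Median centring left 40 lower and 3 higher, beside 13.1% and 18.8% of all genes. The complex IV median was -0.15 with a mean of at least 5, -0.16 at or above the median level, -0.10 with median centring, -0.11 with cyclic loess and -0.15 with the most variable probe set. The complex III median was -0.14 after another quantile normalization, -0.13 with the mean of probe sets and -0.23 with the most variable one. For complex I it was -0.11 with median centring and -0.12 with the mean of probe sets, and 13 of its members were lower with the most variable probe set. Complex IV had 6 lower members with median centring and 5 with the most variable probe set. An alternative chosen after seeing the data set aside probe sets of the _s_ and _x_ types. Of the 69 members that remained 34 were lower and 2 higher, beside 14.6% and 15.3% of all genes. The median was -0.14 for complex II (2 members) and -0.0541 for complex V (13 members). SDHD had no probe set left, and the 2 members of complex II were SDHA (-0.06, not passed in the fit of all probe sets) and SDHC (-0.21). Another, testing only genes with a mean of at least 9, called 1674 genes, since fewer were tested. There 56 of 67 members were lower and 4 higher, beside 36.1% and 38.6% of all genes tested.

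Directions turned in these cases, and where no probe set choice is named the cause was not tested. SDHC was 0.013 with median centring and ranged from -0.0243 to 0.0015 with an array left out (0.0015 without shCSF2 replicate 1). COX6A1 was 0.0045 with the mean of probe sets and 0.13 with the most variable one or without _s_ and _x_ types. COX6B2 was -0.0914 and -0.24 with the mean and the most variable probe set. With an array left out, COX6B2 ranged from -8e-04 to 0.1066, COX7A1 from -0.0335 to 0.0822 and COX8C from -0.011 to 0.1019. NDUFB9 was 0.31 with the most variable probe set, NDUFC2 0.15 with the mean and 0.31 with the most variable one, and UQCRH 0.0731 without _s_ and _x_ types. Of the 53 called members 38 kept the call in all 6 fits without an array and 15 lost it in some; ATP5MC3, COX7C and NDUFB11 lost it in each. Counting NDUFA4 and NDUFA4L2 with complex IV was not run, since the annotation names them COXFA4 and COXFA4L2 and neither is a member. At this number of arrays and these small differences, a subunit that did not pass is not shown to be unchanged.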
